A study of Caenorhabditis elegans with 2 samples.

Results

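The genes described here encode the machinery that carries new proteins into the endoplasmic reticulum (ER) and onward along the secretory pathway in Caenorhabditis elegans. They were taken by name, as every protein-coding gene whose Ensembl symbol begins with sec-, trap-, spcs-, sar- or cop plus 1 letter and a hyphen. This gave 34 of the 19973 protein-coding genes on the 6 nuclear chromosomes. By complex, 11 belong to the translocon with its signal peptidase, 8 to the COPII coat, 7 to the COPI coat and 6 to the exocyst, and 2 encode SNARE proteins. Although they were found by name, the group was selected on its measured values, the IDR, pooled and replicate signals at promoters in these same lists. The signals and counts below are therefore descriptions and carry no test.

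The data are peak lists from chromatin immunoprecipitation and sequencing (ChIP-seq) of NHR-237, a nuclear hormone receptor, in whole first-stage (L1) larvae of both sexes pooled. The worms were of strain OP228, genotype unc-119(ed3) III; wgIs228, in which wgIs228 is the integrated array that supplies the eGFP-tagged receptor. There was 1 group with 2 biological replicates, and an untagged or input sample was not analysed here. Whether the antibody recognised the tag or the receptor itself is not clear from the labels. A whole larva mixes all tissues, so a region does not say in which cells the receptor was bound. The deposited lists hold 21745 regions for replicate 1, 25720 for replicate 2, 7699 for the pooled replicates and 970 past the irreproducible discovery rate (IDR) threshold set by the authors. The pooled list is labelled as peaks and background for input to IDR, so a region in it need not be a called peak. Read depth is unknown, and the signal of a region is the authors' score on an unstated scale, used here only within its own list.

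Proteins with a signal peptide enter the ER through the Sec61 channel, helped by the translocon-associated protein (TRAP) complex, and signal peptidase then cuts the peptide off. COPII coats form the vesicles that leave the ER for the Golgi, COPI coats form those that return to the ER or pass within the Golgi, and the exocyst tethers secretory vesicles to the plasma membrane. SNARE proteins fuse the vesicle with its target membrane.

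A gene was counted as bound where the summit of an IDR region lay in its promoter, taken as the stretch from 1000 bp before to 200 bp after any of its transcript starts. By this count 11 of 34 members were bound (32.4%), against 4.66% of all protein-coding genes. The translocon and signal peptidase had 6 of 11 bound, namely sec-61.A, sec-61.B, sec-61.G, spcs-2, trap-2 and trap-3. COPII had 2 of 8 (sar-1 and sec-24.1), COPI 1 of 7 (copz-1), the exocyst 2 of 6 (sec-3 and sec-15) and the SNARE genes 0 of 2. These 11 genes rest on 10 regions, since sec-61.B and trap-3 stand head to head over the same one. The 10 signals ran from 57.9 to 179.8 with a median of 79.2, against a median of 74.0 over all 970 IDR regions. Differences between complexes of so few genes were not tested.

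**Figure D1:**
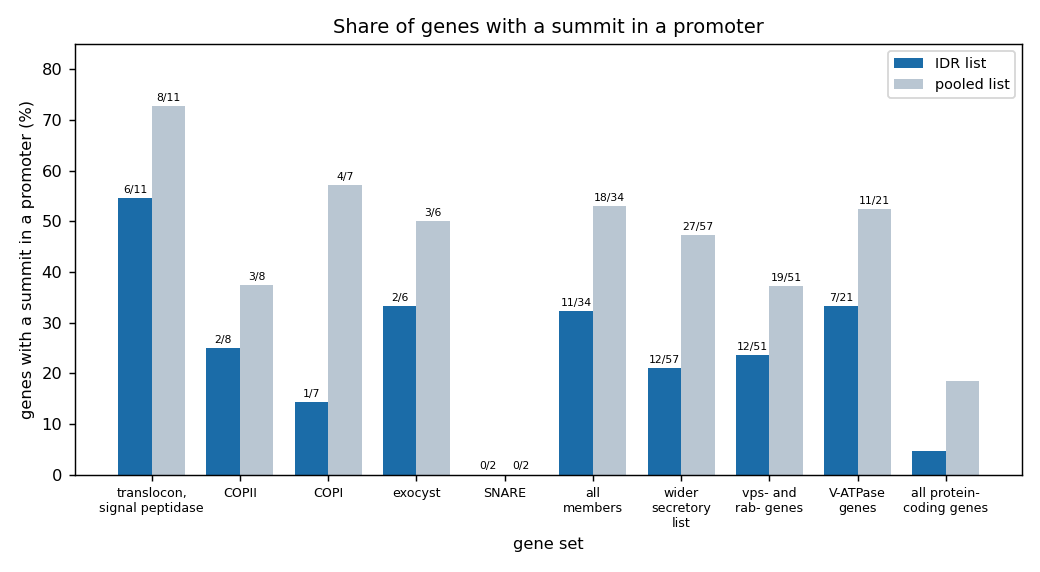
Percent of genes (vertical axis) with a summit in a promoter, for each complex, all members, the comparison sets and all protein-coding genes (horizontal axis), in the IDR list (dark bars) and the pooled list (light bars), with gene counts above the bars. The translocon and signal peptidase stand highest with 6 of 11 genes in the IDR list, and all protein-coding genes lowest among the sets with any bound gene, at 4.66%.

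The bases around 5 of the 10 summits are shown as windows that hold stretches in common, described after the values. The sec-61.A window, not shown, also holds a shared word. Each runs 5′ to 3′ on the strand of the named gene for 100 bp to either side of the summit, on ce11 (bases from the RefSeq copy of WBcel235). Capitals mark matches to 4 known motifs and to words of 9 bases found in 3 or more of the 10 windows. The first is upstream of sec-61.G at chrV:10897267-10897467 on the minus strand, and sec-3 at chrX:3099900-3100100 and sec-24.1 at chrIV:11566240-11566440 are also on the minus strand. The windows of spcs-2 at chrIII:12874814-12875014 and trap-3 at chrIV:2389050-2389250 are on the plus strand.
sec-61.G: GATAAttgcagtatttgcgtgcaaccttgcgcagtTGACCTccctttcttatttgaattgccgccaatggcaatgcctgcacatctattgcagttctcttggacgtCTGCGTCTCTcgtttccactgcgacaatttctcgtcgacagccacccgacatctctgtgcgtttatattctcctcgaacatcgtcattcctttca
sec-3: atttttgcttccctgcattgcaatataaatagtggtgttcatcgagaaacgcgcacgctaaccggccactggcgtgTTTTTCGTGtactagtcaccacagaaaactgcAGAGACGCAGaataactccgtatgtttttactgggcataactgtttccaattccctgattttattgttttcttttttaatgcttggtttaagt
sec-24.1: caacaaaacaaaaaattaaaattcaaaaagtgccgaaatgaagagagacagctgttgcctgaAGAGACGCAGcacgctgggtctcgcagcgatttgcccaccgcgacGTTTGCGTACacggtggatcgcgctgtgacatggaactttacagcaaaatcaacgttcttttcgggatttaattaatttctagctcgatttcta
spcs-2: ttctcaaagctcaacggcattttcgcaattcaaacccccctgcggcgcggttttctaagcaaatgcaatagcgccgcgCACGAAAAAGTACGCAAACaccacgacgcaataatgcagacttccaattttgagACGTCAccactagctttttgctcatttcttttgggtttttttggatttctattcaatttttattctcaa
trap-3: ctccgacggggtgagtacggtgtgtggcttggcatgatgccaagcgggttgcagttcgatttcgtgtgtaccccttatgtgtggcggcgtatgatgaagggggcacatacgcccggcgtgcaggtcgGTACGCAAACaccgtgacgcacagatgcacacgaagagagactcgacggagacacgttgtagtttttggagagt

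All 3 genes of the Sec61 channel were bound, at signals that differed widely. The gene of the small gamma subunit, sec-61.G, had the strongest region of any member, on chromosome V from 10897185 to 10897548. Its signal was 179.8 in the IDR list, where it ranked 52 of 970, with 96.8 in replicate 1 (rank 62) and 82.1 in replicate 2 (rank 51). The summit lay in intergenic sequence 224 bp upstream of the annotated start. It also lay 824 bp upstream of F32D8.13, a same-strand gene whose start lies past the end of sec-61.G.

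The gene of the beta subunit, sec-61.B, shares its region with trap-3, which encodes a TRAP subunit. The region ran from 2388968 to 2389331 on chromosome IV, and its summit was 475 bp upstream of sec-61.B and 295 bp upstream of trap-3. Its signal was 72.5 in the IDR list (rank 512), with 32.01 in replicate 1 (rank 827) and 40.1 in replicate 2 (rank 347). Thus 1 summit between a channel subunit gene and a TRAP subunit gene gives 2 of the 6 translocon counts, and given to the nearer start alone it would count for trap-3.

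The gene of the alpha subunit, sec-61.A, which forms the pore, had the weakest region of the bound members and the only summit downstream of its start. The region lay on chromosome IV from 14824919 to 14825282, with a signal of 57.9 (rank 812), and its summit fell in the 5′ UTR, 163 bp after the start. Replicate 1 gave 29.3 (rank 1007) and replicate 2 gave 28.95 (rank 780). Each replicate also had a weaker second region in this promoter, of 15.6 (rank 4934) in replicate 1 and 17.2 (rank 3625) in replicate 2. The same summit was 578 bp upstream of rps-18, a small ribosomal subunit gene read in the opposite direction, and which of the genes it belongs to cannot be told apart by position.

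Among the other genes of the translocon, trap-2 and spcs-2 were bound. The trap-2 region, on chromosome X from 768072 to 768435, had a signal of 95.9 (rank 288), with 57.9 in replicate 1 (rank 251) and 37.3 in replicate 2 (rank 415). Its summit lay 185 bp upstream of trap-2 and 342 bp upstream of ile-2, which encodes a lectin-type cargo receptor of the early secretory pathway. The divergent pair thus joins genes of ER entry and ER exit. The spcs-2 region, on chromosome III from 12874732 to 12875095, had a signal of 86.0 (rank 369), with 46.1 in replicate 1 (rank 409) and 39.03 in replicate 2 (rank 370). It lay 117 bp upstream of spcs-2, a noncatalytic signal peptidase subunit, and 258 bp upstream of mrg-1, a chromodomain protein gene.

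The TRAP subunit genes trap-1 and trap-4 fell just outside the IDR list. The list ends at rank 970 of the pooled list, with a signal of 52.6, and the trap-1 region ranked 1001 with 51.7. Its signal was 24.06 in replicate 1 (rank 1490) and 30.1 in replicate 2 (rank 700), so it was among the 970 strongest regions of replicate 2 and not of replicate 1. The trap-4 region ranked 1126 with 48.7, from 26.3 in replicate 1 and 22.1 in replicate 2. Just inside the threshold, sec-61.A at rank 812 was the nearest member. All 4 TRAP genes therefore had a region in both replicates, at pooled ranks between 288 and 1126.

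The remaining signal peptidase genes, sec-11 (the catalytic subunit), spcs-1 and spcs-3, had no summit in their promoters in any of the 4 lists. For spcs-3 an IDR region of rank 30 and signal 231 lay with its summit 1038 bp upstream, which is 38 bp beyond the window. K12H4.5, a same-strand gene that ends 236 bp before spcs-3, was bound. Both sec-11 and spcs-1 start within 250 bp of the end of a same-strand gene.

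Of the COPII genes, sar-1 and sec-24.1 were bound. The GTPase encoded by sar-1 starts coat assembly, and its region lay on chromosome IV from 4513514 to 4513877, 377 bp upstream of the start, with a signal of 69.05 (rank 561). Replicate 2 gave 42.7 (rank 304). Replicate 1 gave 2 regions there, of 28.95 (rank 1025) and 23.4 (rank 1584), both below its 970 strongest. Among the other bound members, sec-61.A, sec-61.B, trap-3, sec-3 and sec-15 also had a weaker second region in a replicate list. Without replicate 2, in the 970 strongest regions of replicate 1 alone, sar-1 was not bound and COPII had 1 of 8. The gene sec-24.1 encodes the coat subunit that picks cargo. Its region on chromosome IV from 11566158 to 11566521, 146 bp upstream, had a signal of 68.5 (rank 571), with 37.5 in replicate 1 (rank 617) and 31.0 in replicate 2 (rank 650).

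The other COPII genes had weaker regions or none. The gene sec-16A.2, of a scaffold protein of ER exit sites, ranked 1244 in the pooled list with 46.4, from 26.3 in replicate 1 and 21.05 in replicate 2. Replicate 2 alone gave a region at sec-12, the exchange factor of the SAR-1 GTPase, with 19.8 (rank 2200), and at sec-16A.1, at rank 19661 of 25720. No list had a summit at sec-23, sec-24.2 or sec-31, which encode the partner of SEC-24, a second cargo-binding subunit and the outer coat. The paralogs thus split, with sec-24.1 bound and sec-24.2 without a region. The COPII gene npp-20, the SEC13 homolog, is not a member by name and had no IDR summit (pooled rank 5226).

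Among the COPI genes, copz-1, which encodes the small zeta subunit, was bound. Its region on chromosome II from 10872578 to 10872941 lay 119 bp upstream of copz-1 and 149 bp upstream of the cyclophilin gene cyn-4. The signal was 68.4 (rank 574), with 32.7 in replicate 1 (rank 795) and 42.7 in replicate 2 (rank 303). The genes of the gamma, beta′ and delta subunits had weak pooled regions. These were copg-1 with 30.7 (rank 3257), copb-2 with 30.1 (rank 3438) and copd-1 with 24.8 (rank 6379), and the copb-2 region was found in replicate 2 (23.5) and not in replicate 1. The alpha subunit gene copa-1 had a region in replicate 2 alone (12.3), and copb-1 and cope-1, of the beta and epsilon subunits, had none. The nearest IDR summit to copb-1 lay 1655 bp upstream, with a signal of 73.7.

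Both bound exocyst genes are on chromosome X, and they stood among the stronger members. The sec-15 region, from 8835845 to 8836208, had a signal of 122 (rank 157), with 63.8 in replicate 1 (rank 195) and 58.7 in replicate 2 (rank 118). Its summit was 312 bp upstream of sec-15, yet it lay in the 5′ UTR of the divergent gene C28G1.2, 11 bp after that start, and within 250 bp of a tRNA gene. The sec-3 region, from 3099818 to 3100181, had a signal of 94.9 (rank 300) and lay 148 bp upstream. It ranked 629 in replicate 1 (37.0) and 140 in replicate 2 (56.65).

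The other exocyst members were weak or had no region. The sec-5 region had 28.4 in the pooled list (rank 4069), with 14.8 in replicate 1 and 15.1 in replicate 2. Replicate 2 alone gave a region at sec-8 (11.3), and no list gave one at sec-6 or sec-10. The exocyst genes exoc-7 and exoc-8 are not members by name. They had pooled regions (ranks 2552 and 2521) and no IDR summit. Of the SNARE genes, sec-22 had regions of 9.85 in replicate 1 and 9.005 in replicate 2, close to the lowest signals of those lists (9.38 and 8.78), and sec-20 had none. The sec-22 summits lay 191 bp upstream in replicate 1 and 874 bp upstream in replicate 2. They were thus different sites, and sec-22 had no pooled summit.

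**Figure D2:**
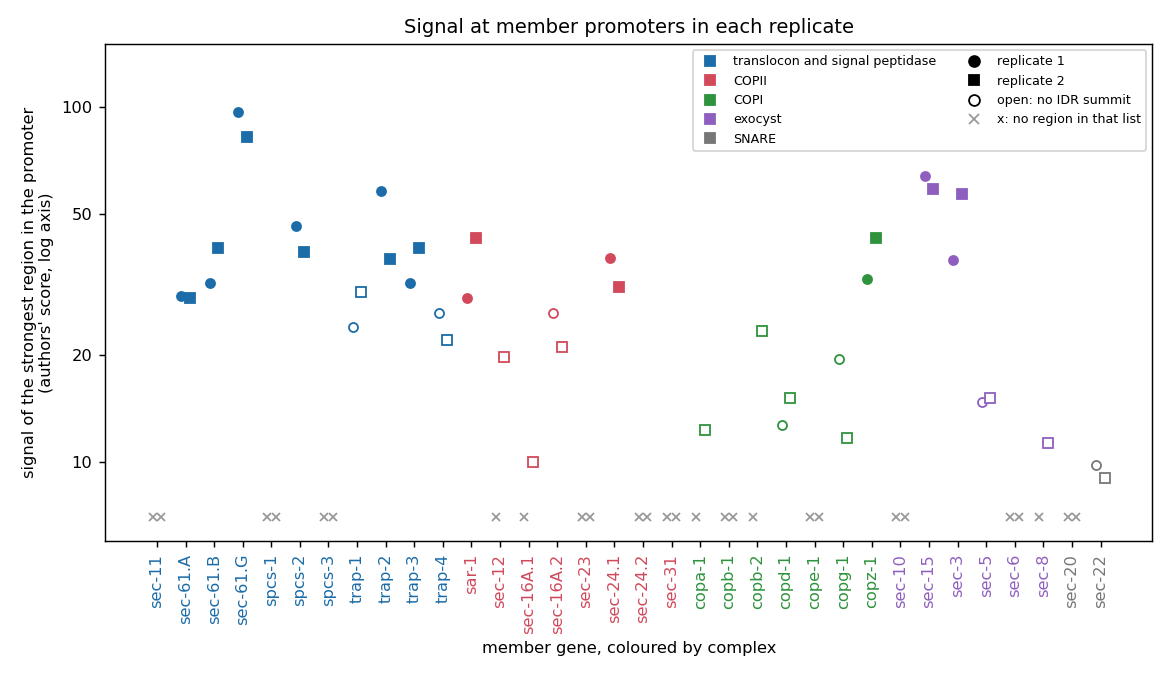
Signal of the strongest region with its summit in each member's promoter (vertical axis, authors' score on a log axis) for the 34 members (horizontal axis, coloured by complex), with circles for replicate 1 and squares for replicate 2. Each replicate has its own scale. Filled marks have an IDR summit, open marks have none, and crosses mark members with no region in that list. The sec-61.G marks are highest, at 96.8 and 82.1, and 11 members have a cross in both lists.

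Taking all lists together, 18 members had a summit of both replicate lists in a promoter (52.9%), against 21.7% of all protein-coding genes, and 18 had one in the pooled list, against 18.4%. These lists also hold many weak regions, and the pooled list holds background, so a region in them is not by itself evidence of binding. The deposited −log10 q was 0.0385 for the pooled copd-1 region. It was 0.0255 in replicate 1 and 0.0203 in replicate 2 for the sec-22 regions. A further 5 members had a region in replicate 2 alone, 0 in replicate 1 alone, and 11 in neither. The replicate 2 list is the longer, with 25720 regions against 21745. Shares of all genes are not given for these counts, so they are not read as a trait of the members. With each replicate taken by itself at the length of the IDR list, 9 of 34 members were bound in replicate 1 (26.5%, against 4.47% of all genes) and 12 in replicate 2 (35.3%, against 4.63%). The bound members sar-1 and sec-61.A dropped out in replicate 1, and trap-1 came in with replicate 2. Both replicates cover nearly all IDR regions by the making of that list, 966 of 970 and all 10 at members. At 8 of the 10 the region was among the 970 strongest of both replicates, against 619 of all 970 (63.8%).

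**Figure D3:**
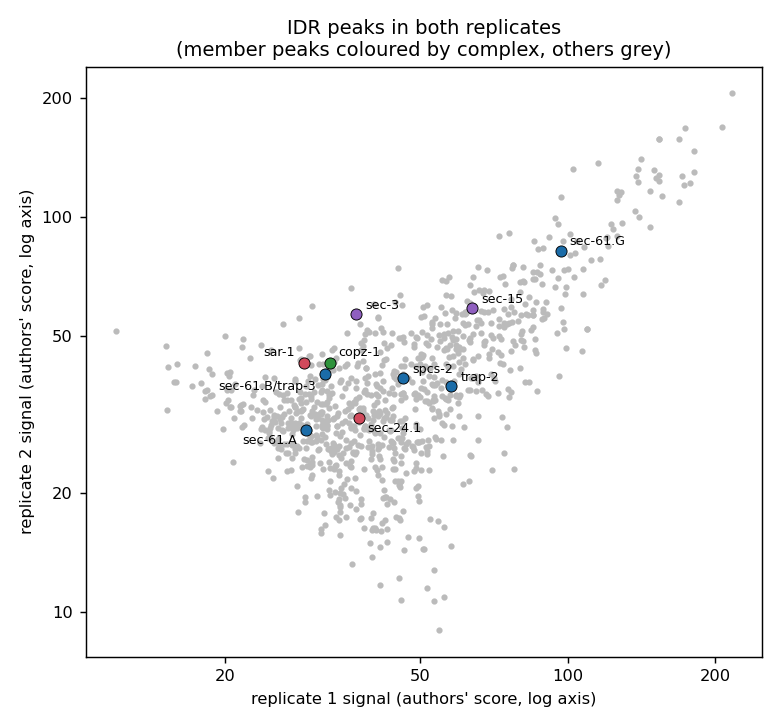
Signal of each IDR peak in replicate 1 (horizontal axis) and replicate 2 (vertical axis), both the authors' score on log axes, for the 966 IDR peaks that both replicates cover. The 10 peaks at members are coloured and named, and the other peaks are grey. Of the 10, sec-61.G is highest in both replicates, and sec-3 and sar-1 lie toward replicate 2, with ranks of 140 and 304 there and 629 and 1025 in replicate 1.

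The promoter window limits where a counted summit can lie. Within it, the median position over the 11 bound members was 185 bp upstream of the nearest annotated start, with a range from 475 bp upstream to 163 bp downstream, and 10 of the 11 were upstream (90.9%). Over all 931 bound genes the median was 249 bp upstream, and 896 were upstream (96.2%). In C. elegans many transcripts have their first bases replaced by trans-splicing, so an annotated start can lie downstream of the true one. Of the 10 summits, 7 lay in more than 1 promoter (70.0%), against 256 of the 670 IDR summits in any promoter (38.2%). These shares are not alike, since member summits were reached through genes and the second share counts each summit once. A summit in more than 1 promoter has more genes through which it can be reached. With a summit given to its nearest gene alone, sec-61.B and sec-15 were no longer counted and 9 members were bound. The share of all genes under this rule is not given, so that count has no background beside it.

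**Figure D4:**
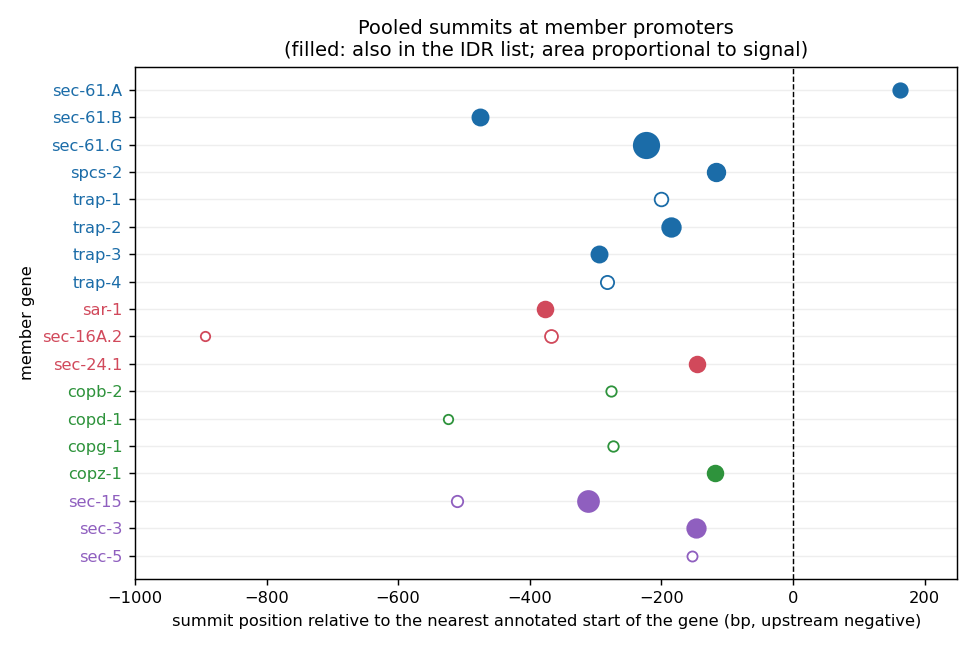
Position of pooled summits relative to the nearest annotated start (horizontal axis, bp, upstream negative) for the 18 members with one (vertical axis, coloured by complex). Filled circles are also in the IDR list, open ones are not, and the area follows the signal. All filled circles but that of sec-61.A, 163 bp downstream, lie between 475 and 117 bp upstream.

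The members were also described by what lies upstream of them, with no test. The next protein-coding gene on the upstream side was divergent, read in the other direction, for 9 of the 11 bound members and 11 of the 23 others. Among all genes it was divergent for 69.6% of the bound and 45.1% of the unbound, so bound genes in general show the same contrast. A same-strand gene less than 500 bp upstream, overlaps included, stood before 1 of 11 bound members (sec-3) and 10 of 23 unbound members. Over all genes this held for 13.3% of the bound and 20.9% of the unbound. Genes so placed can share an operon, which was not analysed here, and of these 10 unbound members only spcs-3 had a bound upstream neighbour. The 23 unbound members lay between 1038 and 388038 bp from the nearest IDR summit, with a median of 40562 bp, and for 21 of them it was more than 2000 bp away.

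Of 4 motifs searched on both strands within 100 bp of the summits, each was in a minority of the 10 windows. The core TGACGT, common to cyclic AMP response elements and to elements bound by unfolded protein response factors, was at 3 summits (spcs-2, sar-1 and copz-1), against 8.97% of all 970 IDR windows and 6.93% of windows of the same length ending at gene starts. In those windows it began 32, 45 and 42 bp after the summit on the strand of the gene. The nuclear receptor half-site AGGTCA was at 2 (sec-61.G and sec-15), against 4.64% and 5.95%. The site of the GATA factor family, GATAA, was at 3 (sec-61.G, sec-15 and copz-1), against 26.8% and 45.6%, and the E-box CACGTG at 0, against 6.08% and 4.23%. In all, 5 of the 10 windows held a match, against 40.4% of IDR windows, 47.8% of weaker pooled windows and 54.1% of windows ending at gene starts. With so few windows these shares were not tested.

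The words shared by member windows fell into 3 sets. They were read from these same windows, 5 of 1876 words of 9 bases being in 3 or more of the 10, so their counts among members are no evidence for them. CTGCGTCTC, with its overlapping neighbour AGAGACGCA on the other strand, was at sec-61.G, sec-3 and sec-24.1. It began 6, 9 and 37 bp from the summit, downstream in the first 2 and upstream in sec-24.1. CTGCGTCTC was also in 171 of all 970 IDR windows (17.6%), in 3.66% of the 6729 pooled windows outside the IDR list and in 2.34% of windows ending at gene starts. GTACGCAAA, overlapping GTTTGCGTA on the other strand, was at spcs-2, at the sec-61.B and trap-3 summit and at sec-24.1, against 1.55% of IDR windows, 0.58% of weaker pooled windows and 0.506% of windows ending at gene starts. The A-rich word CACGAAAAA was at sec-3, spcs-2 and sec-61.A, against 1.55% of IDR windows and 1.14% of windows ending at gene starts. The windows of the strong sec-15 and trap-2 summits held none of these words. The GC content of the 10 windows had a median of 45.8%, with a range from 35.3% to 57.2%, against a median of 43.3% in all IDR windows and 32.8% in windows ending at gene starts.

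Other genes of the early secretory pathway, in a list outside the 34 members, gave 12 of 57 bound (21.1%), and the same share of all genes applies, 4.66%. The strongest of them was hsp-3, which encodes the ER chaperone BiP, with a signal of 133 (rank 116), 85.8 in replicate 1 and 49.1 in replicate 2. The protein disulfide isomerase genes pdi-3 and pdi-6 had 123 and 95.1, the calreticulin gene crt-1 had 99.8, and enpl-1, which encodes the ER form of HSP90, had 87.9. Of the other ER chaperone and folding enzyme genes in the list, the second BiP gene hsp-4 and the oxidase gene ero-1 had no region in any list. The isomerase genes pdi-2 (pooled rank 1251) and pdi-1 (replicate 2 alone) and the calnexin gene cnx-1 (pooled rank 6183) had no IDR summit. Of the unfolded protein response factors, xbp-1 had 125 (rank 145), with its summit 37 bp upstream, and atf-6 had 68.4 (rank 573). The response genes pek-1 (pooled rank 1693) and ire-1 (pooled rank 2159) had no IDR summit. The oligosaccharyltransferase gene dad-1 had 94.9, and the Golgi SNARE gene syx-5 had 74.2. The other oligosaccharyltransferase genes in the list, stt-3, ostd-1, ostb-1 and ribo-1, had no IDR summit. Nor did the other SNARE genes in it, syx-18, gos-28, memb-1, memb-2, nbet-1, vti-1 and ykt-6. The gene nsf-1, whose product takes SNARE complexes apart, had 53.2, near the end of the list at rank 948, with 36.3 in replicate 1 (rank 651) and 14.3 in replicate 2 (rank 7030). The gene ile-2 was among the 12 by the region it shares with trap-2. A further 15 genes of this list had a pooled summit and no IDR summit. The other 30 had no pooled summit, though some of them, such as memb-1, had regions in the replicate lists. In all, 27 of 57 had a pooled summit (47.4%), against 18.4% of all genes.

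Shares above the 4.66% of all genes, like the 32.4% of the members, were also found in 2 other families taken by name. Genes named vps- or rab-, which sort and target vesicles, had 12 of 51 bound (23.5%), and those of the proton pump of acidic organelles, the V-ATPase, had 7 of 21 (33.3%). These shares were not tested against each other.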

How the data were processed

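Peak lists of NHR-237 ChIP-seq in L1 larvae (1 group, 2 biological replicates) were analysed on ce11. Per the deposited readme files, each replicate was called on its own reads against a control, the pooled list on both, and the IDR list drawn from all 3. Aligner, caller, versions and IDR threshold were not given in the sources used here. Each signal is a score from the authors' caller, and the deposited q-value column is on a −log10 scale. That column was not used to count or rank regions, and is given only for weak regions at copd-1 and sec-22. The 4 ce10 lists were not used.

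Regions were joined to Ensembl release 115 genes (WBcel235, the coordinates of ce11) with Python 3.11.15, and numbered from 1. The summit is the region start plus the tenth column. The assignment of summits was checked on simulated regions. Members, lists and motifs were chosen with earlier results of these data known. Of 64 symbols in the wider list, 7 matched no gene and were left out. Every member is named, with the bound genes of the wider list (except 1 that is not reported here) and the genes that share a member's summit. The unbound genes hsp-4, ero-1, pdi-1, pdi-2 and cnx-1, and the bound neighbour K12H4.5, were added after their values were seen. So were ire-1, pek-1, exoc-7, exoc-8, npp-20 and the unbound oligosaccharyltransferase and SNARE genes of the wider list. Words of 9 bases were added after the windows were seen. No test was made. Alternatives were other windows, starts and gene assignment, region overlap, the upper part of the IDR list and each replicate alone.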

Additional observations from a re-analysis of the deposited data

How the results depend on the processing

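Under the alternatives for promoter window, start sites, region overlap and gene assignment, 9 to 13 members were bound (3.78% to 6.06% of all genes over the windows and overlap), and 9 to 12 with either replicate left out. In the 485 strongest IDR peaks the count was 5 members (sec-61.G, sec-15, trap-2, sec-3 and spcs-2), with 3 of the translocon, 0 of COPII and 0 of COPI, which follows from the shorter list. The share of all genes for these 485 is not given, so the counts are not read against it. COPII had 1 to 2 with a replicate left out, the 1 being without replicate 2. With promoters of 2000 bp COPI had 2, copb-1 being added, and spcs-3 joined the translocon. With nearest genes alone the exocyst had 1 and the wider list 7, because summits shared by divergent genes count once. With promoters of 500 bp sec-61.A was lost. Members with a region in each replicate, not always at the same site, numbered 16 with promoters of 500 bp (13.6% of all genes). They numbered 20 by region overlap (25.6%) and 24 with promoters of 2000 bp (33.5%). The median summit position was the same from outermost starts, and 4 to 6 bound members held a motif in narrower and wider windows. No paired analysis was possible because there is 1 group. Read depth, the control and the caller's scale are unknown, which limits any reading of weak regions.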

Other observations

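The bound members were spread over 5 of the 6 chromosomes. Chromosome IV held 5 of its 10 members as bound, X 3 of 5, II 1 of 4, III 1 of 7, V 1 of 2, and chromosome I 0 of 6. Over all genes the share bound was 4.72% on IV, 3.48% on X, 4.26% on II, 7.88% on III, 2.88% on V and 6.32% on I. These counts are small and were not tested. The 6 members on chromosome I are sec-11, spcs-1, trap-1, sec-12, copa-1 and sec-8, of which trap-1 came closest to the IDR list.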
